A study of Homo sapiens with 4 samples.

Results

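The IFN-prefixed libraries of the AMO1 myeloma line were compared with the libraries that lack the prefix, across both vectors that the cells had received. AMO1 is an established line of malignant plasma cells. ATAC-seq uses the Tn5 transposase to cut accessible DNA, so a peak marks open chromatin and its height counts the fragments that cover its highest position. The 4 groups, each with 1 library, were IFN AMO1 cells with the empty PCDH vector, IFN AMO1 cells with the PHF19 overexpression vector, AMO1 cells with the empty PCDH vector, and AMO1 cells with the PHF19 overexpression vector. PHF19 is an accessory subunit of the Polycomb repressive complex that methylates histone H3 at lysine 27. All 4 libraries carry the genotype label WT and the tissue label blood, and all cells had been transfected. The labels do not explain the prefix and their treatment field is the same with and without it, so the groups are called IFN-prefixed and unprefixed here. With 1 library in a group, spread between cultures was not measured.

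Overlapping peaks of the 4 lists were joined into 71853 regions on chromosomes 1 to 22. Of these, 34809 held a peak in all 4 libraries and were compared. A region was gene-near when it lay within 1000 bp of either end of a protein-coding gene (10536 regions) and distal otherwise (24273 regions). Height is the largest fragment pileup in a region per M (mega) fragments of its library. The 2 within-vector ratios, IFN empty vector over empty vector and IFN PHF19 overexpression over PHF19 overexpression, share no library, and the fitted prefix difference is their mean on the log2 scale. Depth was 65.9 and 16.4 M fragments in the IFN empty vector and IFN PHF19 overexpression libraries, against 27.4 and 18.2 M in the empty vector and PHF19 overexpression libraries. The IFN empty vector library, the deepest, is also the one whose file header names another project folder. As a check of the vector labels, a region in PHF19 (chr9:120857950-120858284) had 120 fragments at its peak in the IFN PHF19 overexpression library and 144 in the PHF19 overexpression library, and no peak in the IFN empty vector or the empty vector library. As a check of the cell type, 17 of 18 plasma cell genes had a gene-near peak in all 4 libraries. So did 9 of 19 B cell genes, 4 of 12 T and NK cell markers and 5 of 10 myeloid markers. The counts were 5 of 10 for stromal and epithelial markers and 0 of 4 for erythroid markers, all among genes of chromosomes 1 to 22. Height at SDC1, which encodes the plasma cell surface proteoglycan CD138, was 158 and 314 fragments per M in the IFN empty vector and IFN PHF19 overexpression libraries, against 246 and 295 in the empty vector and PHF19 overexpression libraries.

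Interferons signal through the JAK kinases and the STAT factors. Type I interferon forms a complex that contains STAT2 and IRF9 and binds the interferon-stimulated response element (ISRE), and gamma interferon acts through the gamma-activated site (GAS). Genes that follow such elements include antiviral effectors (the IFIT, OAS and MX families), guanylate-binding proteins, and immune regulators such as IDO1 and the PD-1 ligands. Because the prefix has the same letters as the usual abbreviation of interferon, these genes were followed as lists, without taking the prefix to mean a treatment. In every list a gene is represented by its tallest compared region within 1000 bp of either gene end. That region need not hold the gene's start and can hold the start of a neighbouring gene.

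Promoter sequences are shown first for 4 interferon-regulated genes, in which the shared element can be seen, and for BAIAP2 and IFFO2, 2 genes with lower peaks whose printed windows hold no match to it. They are from RefSeq on GRCh38.p14, run 5′ to 3′ on the gene's strand and end at the base before the start, except for PARP9, of which 30 bases are given because DTX3L is transcribed from the same stretch in the other direction. Capitals mark matches to the ISRE core (GAAA, any 2 bases, GAAA) on either strand.
PARP9 (chr3:122564322-122564351, minus strand): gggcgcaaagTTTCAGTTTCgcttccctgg
EPSTI1 (chr13:42992242-42992491, minus strand): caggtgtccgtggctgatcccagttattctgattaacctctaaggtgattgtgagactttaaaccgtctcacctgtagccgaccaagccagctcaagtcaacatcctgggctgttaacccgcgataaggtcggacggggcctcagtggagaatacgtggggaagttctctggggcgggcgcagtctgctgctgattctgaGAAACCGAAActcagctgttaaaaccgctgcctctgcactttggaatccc
IFIT1 (chr10:89392373-89392622, plus strand): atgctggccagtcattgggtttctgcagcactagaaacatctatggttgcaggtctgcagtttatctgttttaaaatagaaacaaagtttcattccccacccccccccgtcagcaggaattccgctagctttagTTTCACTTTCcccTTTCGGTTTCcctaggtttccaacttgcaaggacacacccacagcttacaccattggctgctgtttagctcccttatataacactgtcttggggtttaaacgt
ISG15 (chr1:1013247-1013496, plus strand): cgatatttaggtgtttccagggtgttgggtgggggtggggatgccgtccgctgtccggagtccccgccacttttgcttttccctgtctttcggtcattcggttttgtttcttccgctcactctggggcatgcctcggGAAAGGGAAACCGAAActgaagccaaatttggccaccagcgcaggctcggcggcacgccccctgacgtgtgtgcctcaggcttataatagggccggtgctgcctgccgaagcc
BAIAP2 (chr17:81034901-81035150, plus strand): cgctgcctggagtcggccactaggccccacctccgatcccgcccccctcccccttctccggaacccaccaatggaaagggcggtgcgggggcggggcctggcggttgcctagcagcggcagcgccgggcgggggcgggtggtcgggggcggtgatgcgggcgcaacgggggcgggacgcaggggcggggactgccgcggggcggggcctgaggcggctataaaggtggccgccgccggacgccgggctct
IFFO2 (chr1:18956677-18956926, minus strand): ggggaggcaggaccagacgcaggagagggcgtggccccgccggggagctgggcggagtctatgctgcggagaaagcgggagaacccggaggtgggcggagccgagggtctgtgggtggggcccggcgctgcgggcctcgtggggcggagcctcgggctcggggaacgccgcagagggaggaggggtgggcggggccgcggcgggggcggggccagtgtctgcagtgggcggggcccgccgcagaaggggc

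Across all regions the prefix went with few single-region changes, and those that passed the test were distal. In limma's fit with vector as a covariate, 20 regions (0.0575% of those tested) were higher and 1 (0.00287%) was lower in the IFN-prefixed libraries at a Benjamini-Hochberg adjusted p under 0.05. All 21 were distal (0.0824% of distal regions higher and 0.00412% lower), and none of the 10536 gene-near regions passed, where an unadjusted p under 0.05 was found for 78 higher and 91 lower regions (1.6%). The vector, in the same fit, gave 1951 higher regions (5.6%) and 2108 lower regions (6.06%). Both empty vector libraries were deeper than both PHF19 overexpression libraries, and the part of depth in these counts was not tested. The fit has 1 residual degree of freedom per region, which is the disagreement of its 2 within-vector ratios. The spread was taken by limma from the trend of this disagreement on height over all regions. A region's own disagreement thus has no weight of its own in its adjusted p, which does not measure spread between cultures. With the vector left out as a covariate, the count of calls was 0 in both directions, and with quantile normalization it was 65 higher and 12 lower, of which 8 were gene-near. With the local median within 2.5 Mb removed, 13 gene-near regions were called.

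A second rule asked for a log2 ratio past 0.5 in the same direction in both vectors, and by it higher regions outnumbered lower ones, mostly away from genes. Of the distal regions, 478 (1.97%) were higher and 41 (0.169%) lower in both pairs. Of the gene-near regions, 23 (0.218%) were higher and 11 (0.104%) lower in both pairs. Over all regions, these were 501 (1.44%) and 52 (0.149%). The split depends on scaling: after quantile normalization, which gives all 4 libraries the same set of heights, the counts were 232 higher and 115 lower for distal regions and 11 higher and 26 lower for gene-near regions. With 0.5 fragments per M added to every height, 93 distal regions were higher and 1 lower, and 5 gene-near regions were higher and 4 lower.

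Gene-near and distal regions differed in their typical ratio, and the size of that difference was not the same in both vectors. The median log2 ratio of gene-near regions was -0.28 for IFN empty vector over empty vector and 0.06 for IFN PHF19 overexpression over PHF19 overexpression. That of distal regions was -0.02 and 0.15, and that of all regions -0.11 and 0.11. The fitted prefix difference had a median of -0.11 in gene-near regions (22.4% above 0) and 0.06 in distal regions (60.7% above 0). Gene-near regions within 1000 bp of a listed gene start had a median of -0.12 (7776 regions), other gene-near regions -0.07 (2760), distal regions inside a gene 0.06 (12260) and those between genes 0.07 (12013). Both IFN-prefixed heights lay above both unprefixed heights in 3.24% of gene-near regions and 15.3% of distal regions, and below both in 21.9% of gene-near regions and 7.14% of distal regions. After quantile normalization the medians were -0.04 (gene-near) and 0.02 (distal).

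Peak height moved with the ratio too. In 10 classes of mean height, the median ratio of the empty vector pair was 0.08 in the lowest class and -0.32 in the highest, and that of the PHF19 pair was 0.15 and 0.06. Gene-near regions were taller, with a median height of 6.82 fragments per M against 1.95 for distal regions. Within the height classes, the gene-near median was still below the distal one in 10 of 10 classes for the empty vector pair and in 9 of 10 for the PHF19 pair, with 1 class equal. The gap had a median of 0.13 in the empty vector pair and 0.06 in the PHF19 pair. Depth differs most in the empty vector pair, and its part in these medians was not tested.

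**Figure D1:**
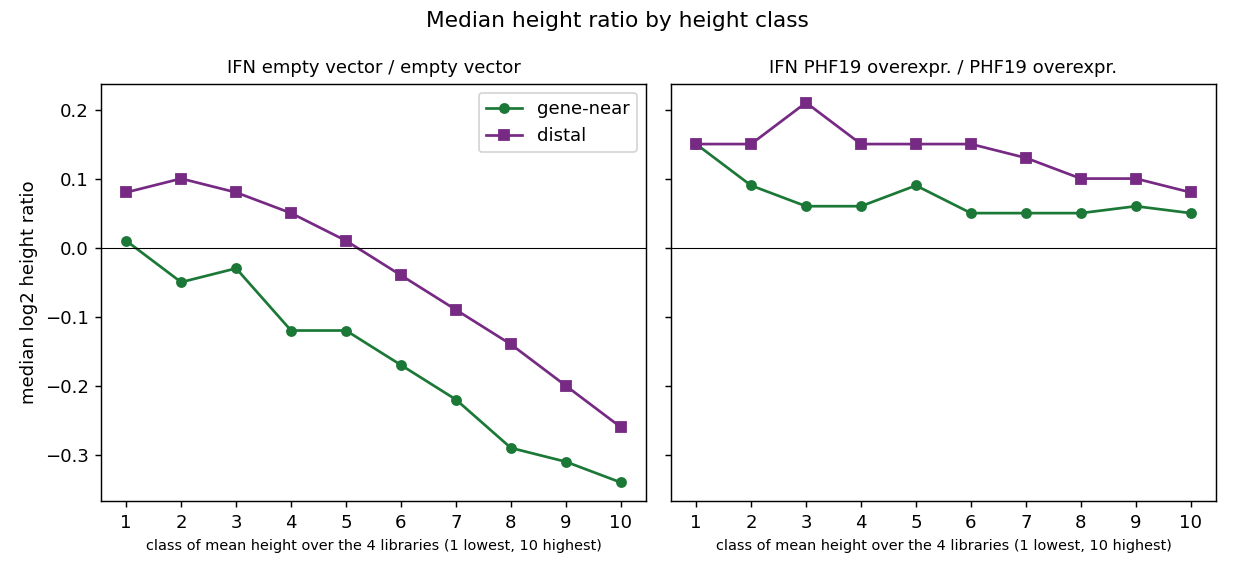
Median log2 height ratio (vertical axis, IFN-prefixed over unprefixed) in 10 classes of mean height (horizontal axis) for gene-near regions (circles) and distal regions (squares), with the empty vector pair on the left and the PHF19 overexpression pair on the right. In the empty vector pair the median over all regions is 0.08 in the lowest class and -0.32 in the highest, and the gene-near line lies below the distal line in every class.

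The 2 within-vector ratios were only weakly related across regions. Pearson's r was 0.16 over all 34809 regions, 0.11 over gene-near and 0.12 over distal regions, as a description in which regions are not independent and heights rest on few fragments. The median r within height classes was 0.13. Log2 heights of the IFN empty vector and empty vector libraries correlated at 0.98 and those of the IFN PHF19 overexpression and PHF19 overexpression libraries at 0.965, while libraries with different vectors correlated at 0.929 to 0.937. The libraries thus lay closer by vector than by prefix. Depth also differed by vector, with 65.9 and 27.4 M fragments for the empty vector and 16.4 and 18.2 M for PHF19 overexpression. Its part in this closeness was not tested. The SD of the log2 ratio was 0.309 and 0.347 within vectors and 0.487 to 0.531 between vectors.

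**Figure D2:**
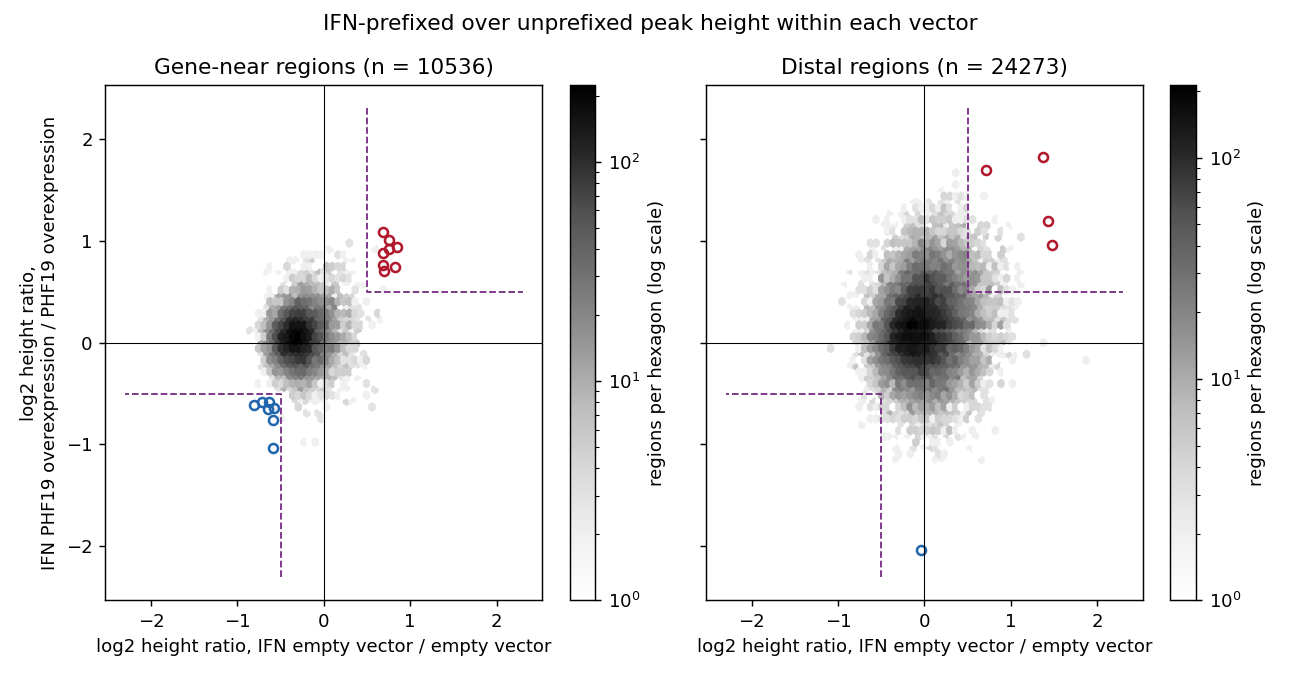
Log2 height ratio of the PHF19 overexpression pair (vertical) against that of the empty vector pair (horizontal), both IFN-prefixed over unprefixed, for gene-near regions (left) and distal regions (right). Shade gives the number of regions, dashed lines the corners where both ratios pass 0.5, and open circles the named regions (red higher, blue lower). The gene-near cloud is centred at -0.28 on the horizontal axis and 0.06 on the vertical one, and r is 0.11 (gene-near) and 0.12 (distal).

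No gene-near region passed the adjusted test, so those named here are from the 8 per direction with the largest ratio shared by both vectors. Of the higher ones, 3 are near genes known as interferon targets: PDCD1LG2, IDO1 and IFIT2. Among all 10536 gene-near regions, 30 stand for interferon-stimulated effectors and 10 for guanylate-binding and gamma-type targets. These 3 are the only listed regions among the 23 gene-near regions higher by more than 0.5 in both vectors. The 8 were picked by their ratios, so the count is a description. The largest shared ratio was at the region near ACKR5, an atypical chemokine receptor gene, and ZBTB39, a zinc finger protein gene (chr12:56998806-56999539). It had 126 and 38 fragments in the IFN empty vector and IFN PHF19 overexpression libraries, against 29 and 22 in the empty vector and PHF19 overexpression libraries. Its heights were 1.91 and 2.32 fragments per M, against 1.06 and 1.21 per M. Both IFN-prefixed libraries were above both others, and the difference was 0.90 (SE 0.24, limma adjusted p = 0.12).

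PDCD1LG2 encodes PD-L2, a ligand of the inhibitory receptor PD-1 on T cells, and its region (chr9:5510072-5511327) had 114 and 34 fragments in the IFN empty vector and IFN PHF19 overexpression libraries, against 28 and 20 in the empty vector and PHF19 overexpression libraries. Heights were 1.73 and 2.08 fragments per M, against 1.02 and 1.10, without overlap between the groups. The difference was 0.84 (SE 0.25, limma adjusted p = 0.21), with 95% counting intervals of the ratio from 0.15 to 1.41 in the empty vector pair and from 0.08 to 1.79 in the PHF19 pair. The neighbouring gene CD274, which encodes PD-L1, had heights of 3.57 and 3.36 per M in the IFN empty vector and IFN PHF19 overexpression libraries, against 3.73 and 3.24 in the empty vector and PHF19 overexpression libraries, and a difference of -0.01. The groups overlapped there.

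IDO1, which degrades tryptophan and so restrains T cells, had a region (chr8:39913238-39914292) with 77 and 38 fragments in the IFN empty vector and IFN PHF19 overexpression libraries, against 19 and 21 in the empty vector and PHF19 overexpression libraries. Its heights were 1.17 and 2.32 per M, against 0.69 and 1.15. The groups did not overlap, by a margin of 1.17 against 1.15, and the difference was 0.88 (SE 0.26, limma adjusted p = 0.21). IFIT2, an antiviral protein that binds RNA, had a region (chr10:89301526-89302510) with 78 and 32 fragments in the IFN empty vector and IFN PHF19 overexpression libraries, against 20 and 22 in the empty vector and PHF19 overexpression libraries. Both its log2 ratios were 0.70, yet the IFN empty vector height of 1.18 per M lay under the PHF19 overexpression height of 1.21 per M, and the limma adjusted p was 0.531.

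The other higher gene-near regions lay near DUSP5, a phosphatase that inactivates ERK kinases, RGMA, a repulsive guidance molecule, WASHC2C, a subunit of the endosomal WASH complex, and GINS2, a subunit of the replicative helicase (a region also near GSE1). Their differences were 0.78, 0.73, 0.89 and 0.78. WASHC2C has a near-identical paralog, so its fragments may be shared between copies. Adjusted p-values of these 4 in limma's fit ran from 0.249 to 0.541. Like those above, these are small peaks, with 12 to 31 fragments in the unprefixed libraries.

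Several of the lower gene-near regions were taller. IFFO2, which encodes an intermediate filament family protein (chr1:18955312-18957486), had 4.81 and 4.58 per M in the IFN empty vector and IFN PHF19 overexpression libraries, against 7.20 and 7.13 in the empty vector and PHF19 overexpression libraries. BAIAP2, a membrane-bending adaptor of the actin cytoskeleton (chr17:81034412-81035575), had 2.72 and 2.99 per M in the IFN empty vector and IFN PHF19 overexpression libraries, against 4.75 and 4.55 in the empty vector and PHF19 overexpression libraries. The groups did not overlap at either. Their differences were -0.61 and -0.71, with limma adjusted p-values of 0.504 and 0.249. After quantile normalization both passed the threshold (limma adjusted p = 0.0201 for IFFO2 and 0.0182 for BAIAP2). With the local median within 2.5 Mb removed, IFFO2 passed (limma adjusted p = 0.013) and BAIAP2 did not (limma adjusted p = 0.0606). Another 5 lay near JPH1, a junctophilin of membrane junctions, KCNJ4, a potassium channel, TOMM40, the pore of mitochondrial protein import, DOCK3, an activator of the GTPase Rac, and EEF1D, a translation elongation factor subunit (a region also near TIGD5). Their differences were -0.65, -0.68, -0.81, -0.65 and -0.60.

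**Figure D3:**
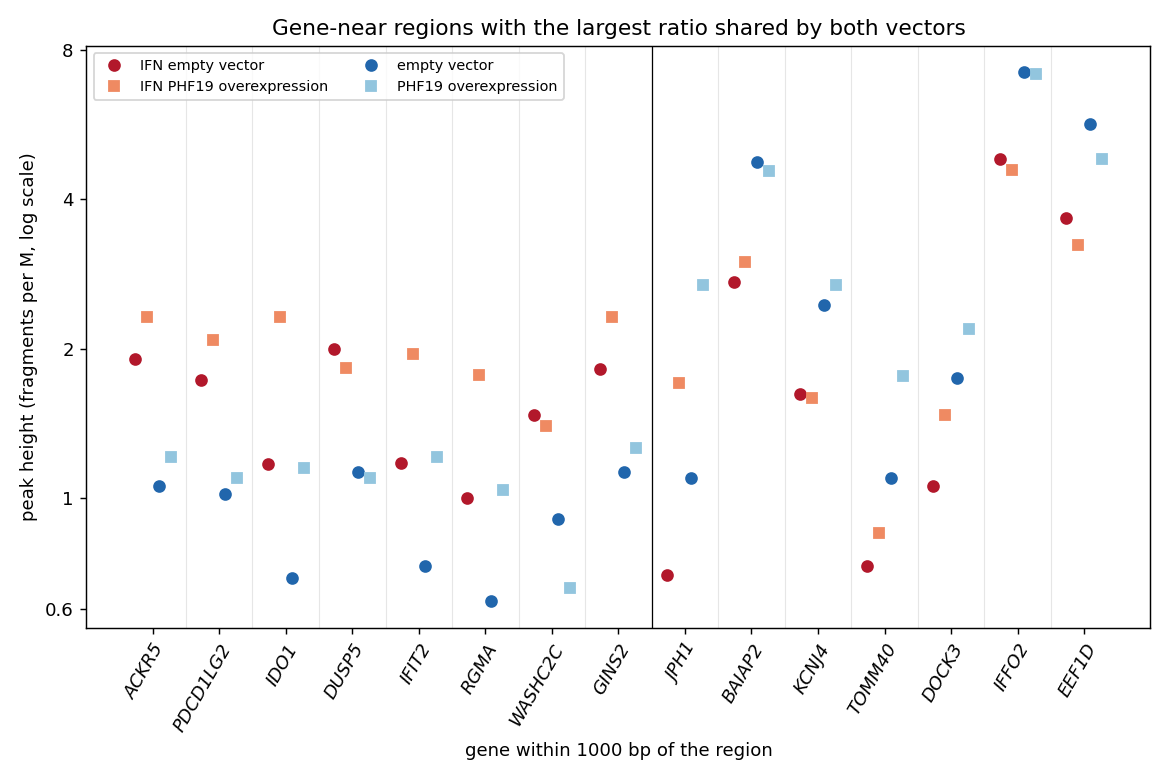
Peak height in fragments per M (log axis) of the named gene-near regions in each of the 4 libraries, with the IFN-prefixed libraries (red and orange) left of the unprefixed ones (dark and light blue) at each gene, and circles for the empty vector and squares for PHF19 overexpression. The 8 regions left of the line are higher and those right of it lower in both vectors; at IFIT2, RGMA and JPH1 the groups overlap.

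Interferon-stimulated effectors as a list stood a little above other gene-near regions in both vectors. Of 40 members, 30 had a gene-near peak in all 4 libraries, 2 in some and 8 in none. Their median difference was 0.13, against -0.11 over all gene-near regions, and ranged from -0.20 to 0.70. The median log2 ratio was -0.10 in the empty vector pair and 0.30 in the PHF19 pair, where those of all gene-near regions were -0.28 and 0.06. After quantile normalization the list's median was 0.11. None of the 30 passed the adjusted test and 1, IFIT2, passed a ratio of 0.5 in both vectors (0.218% of gene-near regions did in this direction). Both IFN-prefixed heights lay above both others at 6 members, which are IFIT1, MX2, IFI6, SAMD9L, EPSTI1 and TRIM22, and below both at 1, PLSCR1, where 3.24% of gene-near regions lay above and 21.9% below.

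EPSTI1, an interferon-induced protein of epithelial and immune cells, had heights of 3.46 and 4.15 per M in the IFN empty vector and IFN PHF19 overexpression libraries, against 2.96 and 2.69 in the empty vector and PHF19 overexpression libraries, and a difference of 0.43 (SE 0.22, limma adjusted p = 0.922). IFIT1, which binds viral RNA without a host cap, had 2.2 and 2.32 per M in the IFN empty vector and IFN PHF19 overexpression libraries, against 2.12 and 1.43 in the empty vector and PHF19 overexpression libraries. Neither group overlaps the other at these 2 genes. ISG15, a ubiquitin-like modifier, had 4.86 and 4.52 per M in the IFN empty vector and IFN PHF19 overexpression libraries, against 5.26 and 4.33 in the empty vector and PHF19 overexpression libraries, so its groups overlapped. At OAS2, which makes the second messenger of RNase L, heights were 6.31 and 9.40 per M in the IFN empty vector and IFN PHF19 overexpression libraries, against 6.80 and 6.25 in the empty vector and PHF19 overexpression libraries. There the IFN PHF19 overexpression library stood alone. The lowest members were IFIT5 and the RNA editing enzyme ADAR, at -0.20 and -0.17. Another 2 members have peaks in some libraries only. MX1, which traps viral particles, had 36 and 0 fragments in the IFN empty vector and IFN PHF19 overexpression libraries, against 10 and 12 in the empty vector and PHF19 overexpression libraries. IFI44L, an antiviral effector, had 39 and 18 fragments in the IFN empty vector and IFN PHF19 overexpression libraries, against 15 and 0 in the empty vector and PHF19 overexpression libraries.

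Guanylate-binding and gamma-type targets were split. Of 18 members, 10 were tested, with a median of -0.01 and a range from -0.35 to 0.88. IDO1 and PDCD1LG2 passed a ratio of 0.5 in both vectors, as described above. GBP4, a guanylate-binding GTPase (chr1:89198323-89199762), had heights of 1.64 and 2.63 per M in the IFN empty vector and IFN PHF19 overexpression libraries, against 0.84 and 1.98 in the empty vector and PHF19 overexpression libraries. Its difference was 0.69 (SE 0.24, limma adjusted p = 0.419), and its IFN empty vector height lay under the PHF19 overexpression height. GBP1 and GBP2 had a peak in some libraries only, with 43 and 0 fragments (GBP1) and 36 and 0 (GBP2) in the IFN empty vector and IFN PHF19 overexpression libraries, against 15 and 0 (GBP1) and 0 and 0 (GBP2) in the empty vector and PHF19 overexpression libraries. SOCS1, the feedback inhibitor of JAK kinases, was the lowest member at -0.35, with heights of 7.04 and 9.53 per M in the IFN empty vector and IFN PHF19 overexpression libraries, against 11.18 and 9.71 in the empty vector and PHF19 overexpression libraries. IRF1, a transcription factor of the gamma interferon response, had 4.37 and 12.03 per M in the IFN empty vector and IFN PHF19 overexpression libraries, against 5.66 and 10.15 in the empty vector and PHF19 overexpression libraries, a difference between the vectors rather than by prefix.

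**Figure D4:**
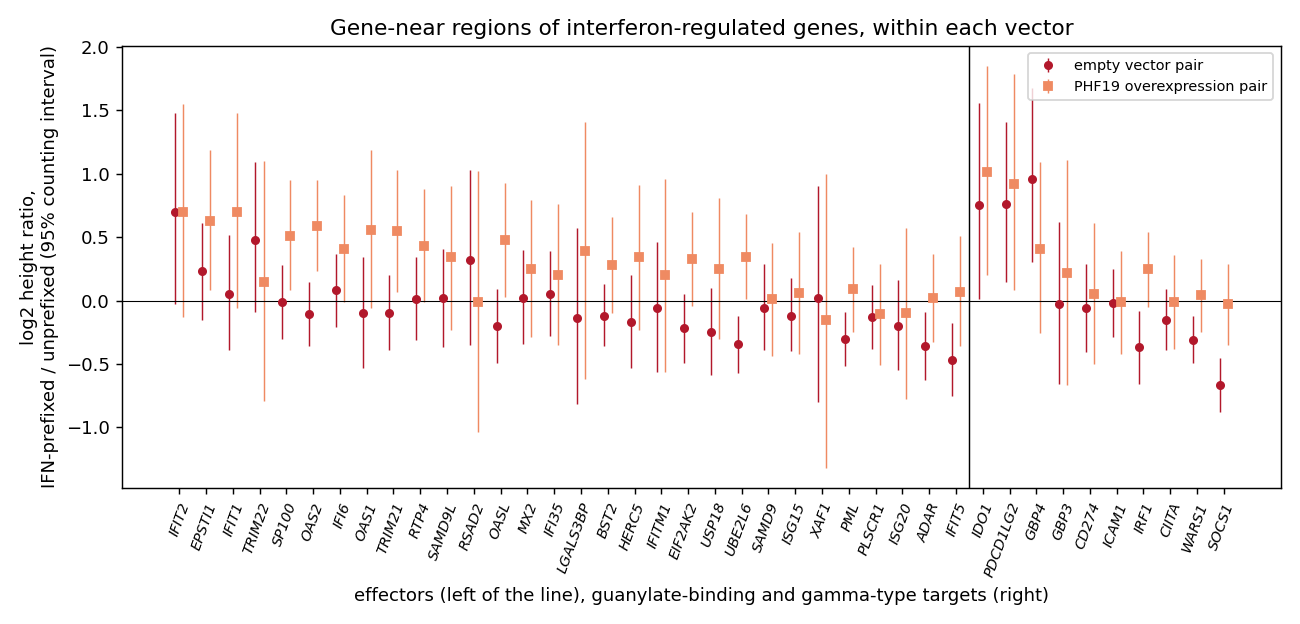
Log2 height ratio (IFN-prefixed over unprefixed) of each tested member of the interferon-stimulated effectors (left of the line) and the guanylate-binding and gamma-type targets (right), with circles for the empty vector pair, squares for the PHF19 overexpression pair, and bars for the 95% counting interval. Most effectors have their square above their circle. The medians of all gene-near regions differ in the same direction, at -0.28 (empty vector pair) and 0.06 (PHF19 overexpression pair). IFIT2, IDO1 and PDCD1LG2 have both ratios at 0.70 or more.

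Among the genes of interferon signalling and sensing, the region shared by PARP9 and DTX3L stood out. PARP9, an ADP-ribosyltransferase family member, and DTX3L, the ubiquitin ligase it pairs with, start back to back (chr3:122563920-122564865), and this region had 373 and 138 fragments in the IFN empty vector and IFN PHF19 overexpression libraries, against 129 and 77 in the empty vector and PHF19 overexpression libraries. Heights were 5.66 and 8.43 per M, against 4.71 and 4.22, without overlap between the groups. The log2 ratio was 0.26 in the empty vector pair and 1.0 in the PHF19 pair, and the difference 0.63 (SE 0.23, limma adjusted p = 0.461). After quantile normalization limma's adjusted p was 0.0019, and with the local median within 2.5 Mb removed it was 0.0603. The 95% counting interval of the empty vector ratio, -0.03 to 0.56, held 0. The lists of interferon signalling (26 regions) and nucleic acid sensors (17 regions) had medians of -0.08 and -0.07. PIAS1, a SUMO ligase that restrains STAT factors, was lowest in the first at -0.42, with 4.29 and 4.34 per M in the IFN empty vector and IFN PHF19 overexpression libraries, against 5.66 and 5.87 in the empty vector and PHF19 overexpression libraries, and groups that did not overlap. STAT2, a subunit of the ISRE-binding complex, had 14.93 and 17.83 per M in the IFN empty vector and IFN PHF19 overexpression libraries, against 17.61 and 13.06 in the empty vector and PHF19 overexpression libraries, so the 2 vectors went in opposite directions.

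Apart from markers of other cell types, given below, the other lists had medians from -0.21 to -0.03, against -0.11 over all gene-near regions. Antigen presentation had medians of -0.09 (MHC class I and peptide loading, 19 regions) and -0.03 (MHC class II, 13 regions). The largest members were ERAP2, a peptide-trimming aminopeptidase, at 0.41 and the lysosomal protease CTSS at 0.35. Plasma cell genes had a median of -0.08 and, at 0 of 17 regions, both IFN-prefixed heights beyond both others, where 3.24% of gene-near regions lay above and 21.9% below. B cell genes had a median of -0.11, with BLNK, an adaptor of the B cell receptor, highest at 0.58 (limma adjusted p = 0.876). Medians were -0.12 for NF-kappaB genes, -0.18 for AP-1 and immediate early genes, -0.09 for the unfolded protein response, -0.11 for Polycomb complexes, -0.12 for Polycomb target transcription factors, -0.16 for myeloma oncogenes and suppressors and -0.21 for apoptosis regulators. Cell cycle and replication genes had a median of -0.16, close to those of cytosolic ribosomal protein genes (-0.14) and housekeeping genes (-0.15). Both IFN-prefixed heights lay below both others at 14 of 30 cell cycle regions, 6 of 14 apoptosis regions and 8 of 22 AP-1 regions. They lay above both others at 0, 1 and 0 of these. Of all gene-near regions, 21.9% lay below and 3.24% above. Over all 22 lists, 0 of 378 regions passed limma's adjusted test and 8 had an unadjusted p under 0.05, as 1.6% of gene-near regions did; 1, that of PARP9 and DTX3L, passed after quantile normalization.

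Markers of other cell types had few tested regions. Their medians were -0.19 for T and NK cell markers (4 regions), 0.03 for myeloid markers (5 regions) and 0.12 for stromal and epithelial markers (5 regions). The last was close to the 0.13 of the interferon-stimulated effectors. ITGAM, a myeloid integrin, had 2.25 and 2.87 per M in the IFN empty vector and IFN PHF19 overexpression libraries, against 1.5 and 2.25 in the empty vector and PHF19 overexpression libraries (limma adjusted p = 0.868). That region lies outside the gene, 856 bp from an end, and is near no listed start.

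**Figure D5:**
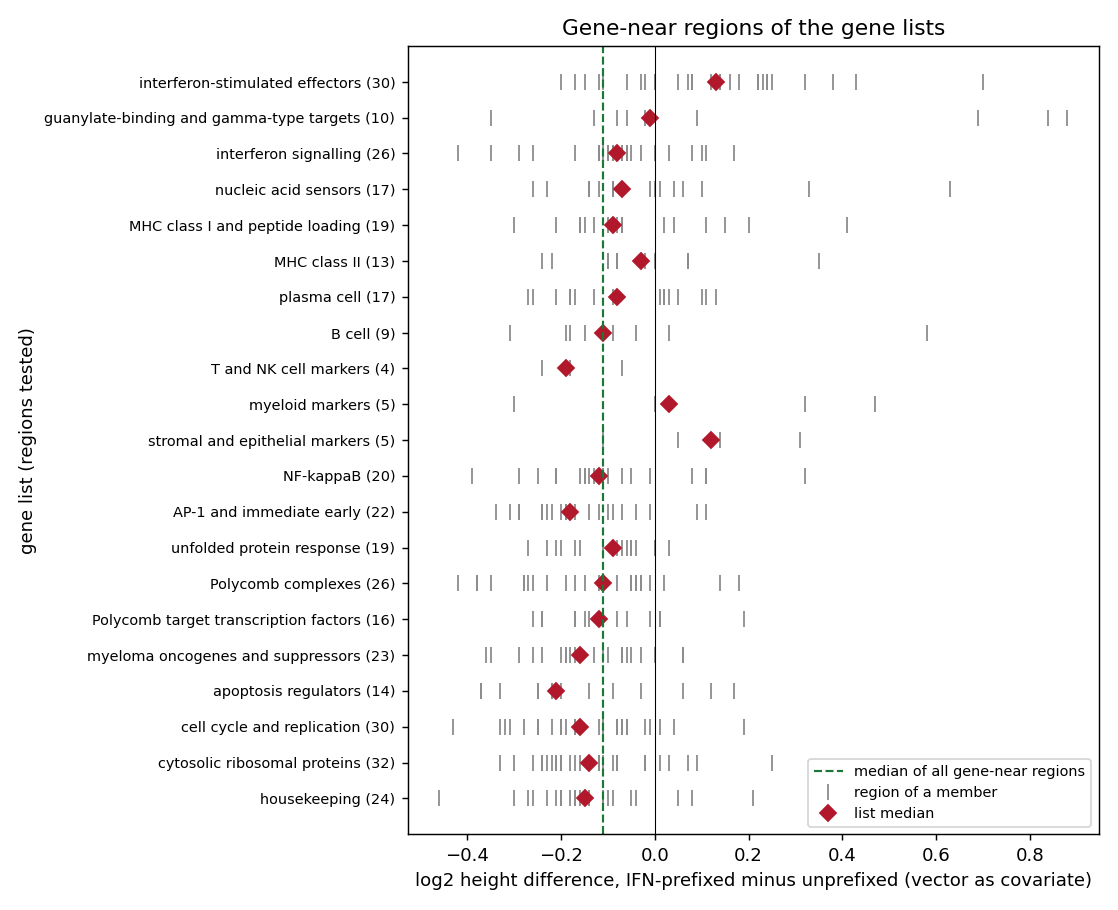
Fitted log2 height difference (horizontal axis, IFN-prefixed minus unprefixed) of every tested gene-near region of each list (grey ticks) with the list median (red diamonds) and the median of all gene-near regions, -0.11 (dashed line). The interferon-stimulated effectors have the highest median, 0.13; the regions of IDO1, PDCD1LG2, GBP4, IFIT2 and PARP9 are the ticks farthest to the right.

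The ISRE core (GAAA, any 2 bases, GAAA) was counted in the promoter windows of RefSeq, 250 bases before to 50 after each start, on both strands. The core was present in 3.2% of all 21155 windows and in 239 of the 7472 gene-near regions with a listed start inside their bounds (3.2%). Of the regions with a start of an interferon effector or gamma-type list member, 18 of 27 (66.7%) held it. Of the 20 such regions that were higher at an unadjusted p under 0.05, 6 held it (30.0%), and of the 59 that were lower, 0 did. The 6 belong to PARP9 with DTX3L, GBP4, EPSTI1, the B cell gene FCRLA, PLEKHG7 and SYNPO2. The group was formed by the measured difference, so these shares are a description. Most regions with a match were not among the higher ones: the median difference was -0.09 with a match and -0.12 without, and within the interferon lists 0.08 with and -0.00 without. ISG15, whose 2 overlapping matches are shown above, had a difference of -0.03. The GAS core TTCNNNGAA was present in 6.9% of windows, in 4 of the 20 higher regions and in 2 of the 59 lower ones. The AP-1 core TGANTCA (6.1% of windows) was found in 1 of 20 and 4 of 59, and the NF-kappaB core (GGGA, any base, TTTCC; 0.5% of windows) in 1 of 20 and 0 of 59. Motifs were counted one by one, and a base may belong to matches of several.

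The 21 distal regions that passed the adjusted test were small peaks spread over the genome. Their mean height was 0.94 to 3.58 fragments per M (median 1.73, against 2.73 over all regions), they lay 5770 to 818150 bp from the nearest end of a coding gene (median 44682 bp), and 10 lay inside one. In 17 of 21 both IFN-prefixed heights lay beyond both others, where 15.3% of distal regions lay above and 7.14% below. In 17 both ratios passed 0.5, where 1.97% of distal regions were higher and 0.169% lower. The 21 were called by the same difference, so these counts are a description. In 6 of the 21 the PHF19 overexpression library had 10 or fewer fragments, where the lowest peak a list could hold there had 8. The largest was in NIM1K, a kinase gene (chr5:43233671-43234444), with 81 and 35 fragments in the IFN empty vector and IFN PHF19 overexpression libraries, against 13 and 11 in the empty vector and PHF19 overexpression libraries. Heights were 1.23 and 2.14 per M, against 0.48 and 0.60, and the region rose by 1.60 (SE 0.29, limma adjusted p = 0.000855).

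Among called regions without overlap and with a mean height of at least 1 per M, the next was in UTRN, the gene of the cytoskeletal protein utrophin. This region (chr6:144305770-144306569) had 1.38 and 2.38 per M in the IFN empty vector and IFN PHF19 overexpression libraries, against 0.51 and 1.04 in the empty vector and PHF19 overexpression libraries (difference 1.31, limma adjusted p = 0.00546). A region 44682 bp from SERTAD2, a transcriptional coregulator gene, rose by 1.22 (limma adjusted p = 0.0207, but 0.0567 after quantile normalization, and also not under 0.05 at a mean height of at least 1 per M), and 1 in ROBO2, a receptor for Slit guidance proteins, rose by 1.2 (limma adjusted p = 0.0198, but 0.111 with the local median removed). A lack of overlap between the groups was a condition for naming the regions of NIM1K, UTRN, SERTAD2 and ROBO2. Chosen after their values were seen, a region in IKZF1, the lymphoid transcription factor gene (chr7:50352056-50352597), rose by 1.0 (limma adjusted p = 0.0311), while the gene's start region had a difference of -0.36.

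The single lower region lay in the immunoglobulin heavy chain locus, 14 bp from IGHV4-30-2 (chr14:106348348-106349269). It had 157 and 12 fragments in the IFN empty vector and IFN PHF19 overexpression libraries, against 67 and 55 in the empty vector and PHF19 overexpression libraries. Its log2 ratio was -0.04 in the empty vector pair and -2.04 in the PHF19 pair, so the call (difference -1.04, limma adjusted p = 0.0205) rests on the IFN PHF19 overexpression library. The opposite case was a region in the T cell receptor gamma locus at TRGV1 (chr7:38367531-38368531), with heights of 2.84 and 4.15 per M in the IFN empty vector and IFN PHF19 overexpression libraries, against 0.80 and 3.51 in the empty vector and PHF19 overexpression libraries (difference 1.03, limma adjusted p = 0.0159). Here the low value of the empty vector library decides the call.

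Distal regions whose nearest gene is a listed one, a grouping added after the data had been seen, gave few changes. Those nearest to guanylate-binding and gamma-type targets had a median of 0.26 (12 regions; log2 ratios 0.01 in the empty vector pair and 0.46 in the PHF19 pair), those nearest to interferon-stimulated effectors 0.07 (35 regions), and all distal regions 0.06. A region inside RSAD2, which encodes the antiviral enzyme viperin, lies within 1000 bp of a listed start of that gene (chr2:6877207-6878272). It had 6.33 and 7.76 per M in the IFN empty vector and IFN PHF19 overexpression libraries, against 5.52 and 4.72 in the empty vector and PHF19 overexpression libraries. Its difference was 0.46 (limma adjusted p = 0.901, or 0.0347 after quantile normalization and 0.295 with the local median removed). A region 37133 bp from GBP5 (chr1:89309993-89311893) had 0.82 and 1.47 per M in the IFN empty vector and IFN PHF19 overexpression libraries, against 0.62 and 0.55 in the empty vector and PHF19 overexpression libraries (difference 0.91, limma adjusted p = 0.349). The groups did not overlap at either.

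Peaks present in both IFN-prefixed libraries and neither unprefixed one numbered 2324, against 41 in the opposite pattern. Only 110 of the 2324 (4.7%) were gene-near, where 30.3% of the regions with a peak in all 4 were. The lists differed in length and held 68042 and 44664 peaks for IFN empty vector and IFN PHF19 overexpression, against 47870 and 42941 for empty vector and PHF19 overexpression. With every list held to its 42941 highest-ranked peaks, the counts were 685 and 575, and with peaks of a -log10 q of at least 5 they were 2115 and 17. None of the listed genes had gene-near peaks in both IFN-prefixed libraries alone.

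No 5 Mb stretch of the genome moved with the prefix by more than 0.2 in both vectors. Median differences by chromosome lay between -0.08 (chromosome 19) and 0.04 (chromosome 18). Of 506 bins of 5 Mb with at least 20 regions, 0 had a median past 0.2 in the same direction in both vectors, relative to the medians over all regions. Under this cut, some bins lay the same way in both vectors. On chromosome 5, the empty vector and PHF19 pairs had 0.22 and 0.15 at 35 to 40 Mb, and -0.21 and -0.09 at 180 to 185 Mb.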

How the data were processed

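Peaks of 4 ATAC-seq libraries, 1 per group, were used. Per the file headers, the authors ran MACS2 2.1.2 on each library alone, with no control, paired-end input, duplicates retained and a q limit of 0.01; the build is hg38, and bcl2fastq 2.17, Trimmomatic 0.38 and DiffBind are named in the submitters' processing notes. The aligner and any Tn5 shift: not given in the sources used here. Of the deposited columns, pileup is the signal, an unscaled coverage by whole fragments. The deposited -log10 q-value was used to filter and rank peaks within a list, and the deposited -log10 p-value was not. The deposited fold enrichment, a ratio to local background, is the authors' value and was not compared.

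Peaks overlapping by at least 1 bp were merged. Log2 heights were fitted with limma 3.58.1 (R 4.3.3; prefix and vector as terms, trend on height, no centring), and p-values were adjusted over all 34809 regions. Intervals of a ratio are 95% counting intervals; as duplicates were kept, they cover counting error only. Genes came from RefSeq GRCh38.p14 (19122 coding genes on chromosomes 1 to 22, of which 15100 had a start and strand). Steps were tested on simulated data. Named were the 8 gene-near and 4 distal regions per direction with the largest difference past the adjusted test, without overlap and at least 1 fragment per M; where a class and direction had none, by the smaller of both ratios. From each list the highest and lowest members were taken, others after their values were seen. Regions, lists and rules were chosen with earlier results of these data known. Scaling, filters, the spread model and left-out libraries were varied. Some named regions are not reported here.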

Additional observations from a re-analysis of the deposited data

Results flagged for a closer look

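The 2 vectors went opposite ways at the following, and none of these differences was tested, since each vector has 1 library with and 1 without the prefix. Gene-near regions had a median log2 ratio of -0.28 in the empty vector pair and 0.06 in the PHF19 overexpression pair. The signs depend on the scaling, since the medians over all regions were -0.11 and 0.11: relative to these, gene-near regions and SDC1 lay lower in both pairs, while STAT2 and DIS3 still went opposite ways. STAT2 had -0.24 and 0.45 in these 2 pairs, SDC1 -0.64 and 0.09, and DIS3, the exosome ribonuclease gene often mutated in myeloma, -0.22 and 0.35. The 95% counting intervals of the 3 genes excluded 0 in both pairs, which was the rule that picked them. In the empty vector pair the STAT2 interval (-0.4 to -0.08) held the median over all regions, -0.11. In the PHF19 overexpression pair the SDC1 interval (0.04 to 0.15) held that pair's median, 0.11. The interval of each in its other pair did not hold the median there. SDC1 is an extreme of height, where limma's pooled spread gave an SE of 2.33.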

How the results depend on the processing

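No paired analysis was possible because each group holds 1 library and the labels carry no shared replicate numbers. The adjusted calls (20 higher, 1 lower, 0 gene-near) depended on scaling and on the spread model: removing library medians gave 24 higher and 6 lower with 4 gene-near, quantile normalization 65 and 12 with 8 gene-near, removing the local median within 2.5 Mb 41 and 18 with 13 gene-near, and a spread without a trend on height 127 and 5 with 3 gene-near. A -log10 q of at least 5 gave 8 and 0. Without the vector covariate, and without any 1 library with prefix as the only term, the counts were 0 and 0. Of the 21 calls, 6 were called under every setting that kept the vector covariate; they include regions near BCL11A, FGF1, UTRN, IKZF1 and ADAMTSL3. Of the listed regions, 1 was called after quantile normalization and 0 otherwise.

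Counts with both ratios past 0.5 (gene-near 23 higher and 11 lower, distal 478 and 41) were 20 and 25, and 421 and 52, with library medians removed; 11 and 26, and 232 and 115, after quantile normalization; and 5 and 4, and 93 and 1, with 0.5 per M added. Distal counts were 296 and 19 at a mean height of at least 1 per M, and 300 and 23 at a -log10 q of at least 5. Within 5000 bp of a gene, 51 were higher. The distal minus gene-near median, 0.17, was 0.06 after quantile normalization, 0.10 to 0.26 without 1 library (the other vector's ratio), and 0.13 to 0.23 with prefix as the only term. Regions with a peak in both IFN-prefixed libraries alone numbered 685 instead of 2324 at equal list length. The cause of these shifts was not tested. For the 76 named regions and genes, 977 differences were recomputed. Of these, 903 moved by less than the spread between vectors or kept their side of the threshold. None of the called ones changed direction. The count includes values without 1 library, each of which is the other vector's ratio. Such values lie within that spread by construction, so the count does not measure robustness. Depth limits small peaks most, since the lowest peak in a list had 16 and 8 fragments in the IFN empty vector and IFN PHF19 overexpression libraries, against 10 and 8 in the empty vector and PHF19 overexpression libraries.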
